A study of Mus musculus with 9 samples.

Results

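The 42 genes described here encode the transport machinery and the gate of the primary cilium. They were chosen by symbol for what their proteins are known to do, by a rule that uses no measured value, though with earlier results of these data known, and all 42 were found once among the 54532 genes of the deposited table. They fall into 8 role groups: 11 genes of the intraflagellar transport complex B (IFT-B), 6 of complex A (IFT-A), 6 subunits of the BBSome, 2 chaperonins that assemble the BBSome, 11 transition zone genes, 2 genes of the ciliary membrane, 2 kinesins and 2 Ellis-van Creveld genes. The data are read counts from bulk RNA of lambdoidal junction tissue, where the nasal and maxillary prominences of the face come together to form the upper lip and primary palate. It came from C57BL/6J mouse embryos of 3 stages a day apart, of which the first was E10.5 (embryonic day 10.5), the next E11.5 and the last E12.5. Each stage has 3 libraries, and a pool of embryos went into each library. The comparison of E11.5 with E10.5 is called the early step here, that of E12.5 with E11.5 the late step, and that of E12.5 with E10.5 the whole interval. The whole interval shares its libraries with both steps. The embryos carried no mutation and received no treatment, and the labels give the stage as the only difference between the groups. Whether the pools of a stage came from separate litters is not given in the sources used here, and the p-values measure the spread between these pools.

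The primary cilium is a single antenna-like organelle that most embryonic cells build on a basal body between divisions and take down before mitosis. Trains of IFT-B, pulled outward by kinesin-2, carry tubulin and other cargo to the tip, and trains with IFT-A carry material back. The transition zone at the base acts as a gate, the BBSome takes membrane receptors out of the cilium, and Hedgehog signals are read inside it. In the face, cilia of neural crest derived mesenchyme are needed for that reading, and mice that lack ciliary proteins there often have a wide or cleft midface.

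Many promoters of ciliary genes hold an X-box, the element bound by RFX transcription factors, and the promoters of the 42 genes were searched for it. The RefSeq promoters used (build GRCm38.p6) run from 250 bases before to 50 bases after each annotated start, and 41 promoters of 38 of the 42 genes were matched by symbol. There was no entry for Tmem67, Ift81, Ift122 and Ift80. Both strands were searched for 3 spellings of a left and a right arm with 2 bases between them, in which N stands for any base. Each holds every match of the one before it, and the spellings were settled on after several had been looked at. The strictest, with the left arm GTTNCC, the bases A and T, and the right arm GGNAAC, was in 0 of the 41 promoters and in 0.128% of all 32851 promoters. With the same arms and any 2 bases between them, it was in 3 of the 41 promoters (7.32%) and in 0.451% of all promoters. The loosest, with the left arm GTNNCC, any 2 bases and the right arm NGNAAC, was in 11 of the 41 (26.8%) and in 2.17% of all promoters. Those 11 belonged to B9d2, Bbs1, Bbs4, Bbs7, Ift22, Ift57, Mks1, Tctn1, Tctn2, Tmem216 and Tmem231, that is, to transition zone, BBSome and IFT-B genes. A match is a description of the letters only. The sequences below show the 3 genes with the tighter spelling, then Bbs1, which changed between stages, and Ift57, the IFT-B gene given in full below. Each is written 5′ to 3′ on the strand of its gene, with the 14 bases of the match in capitals. Bbs1 and Ift57 hold the loosest spelling only when read on the other strand, so their capitals show its reverse complement. The windows are Bbs7 (chr3:36613489-36613518, minus strand), Mks1 (chr11:87853183-87853212, plus strand), Tctn1 (chr5:122264411-122264432, minus strand, cut by the end of the promoter), Bbs1 (chr19:4906605-4906634, minus strand) and Ift57 (chr16:49699199-49699228, plus strand).
Bbs7: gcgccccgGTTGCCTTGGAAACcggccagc
Mks1: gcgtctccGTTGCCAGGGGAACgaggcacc
Tctn1: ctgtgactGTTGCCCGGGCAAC
Bbs1: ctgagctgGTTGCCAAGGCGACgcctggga
Ift57: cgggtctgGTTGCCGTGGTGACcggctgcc
Counted from 0 at the annotated start, the match lay at −121 to −108 in Bbs7, −24 to −11 in Mks1 and −87 to −74 in Ift57. In Tctn1 and Bbs1 it lay past the start, at 36 to 49 and at 1 to 14, respectively.

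The total count per library was between 16581009 and 20836804. Expression levels are given as CPM, the usual depth-scaled count, on TMM-scaled library sizes, and as mean ± SD with n = 3, and levels of different genes are compared only as CPM per kb of gene length. Markers of facial mesenchyme were found at every stage, with summed levels of 1140–1920 CPM at E10.5, 2585–2756 CPM at E11.5 and 2630–2944 CPM at E12.5 over 8 genes. Markers of forebrain and eye neuroepithelium summed to 298–419 CPM at E10.5, 94.1–109 CPM at E11.5 and 93.7–116 CPM at E12.5, and their neural progenitor gene Sox1 was at 48.8 ± 10.2 CPM at E10.5 and 0.63 ± 0.48 CPM at E11.5. Genes of dividing cells summed to 3734–5164, 3464–3735 and 2590–2763 CPM over 10 genes in the same order. The E10.5 pools differed among themselves. In replicates 1 to 3, facial mesenchyme markers summed to 1917, 1920 and 1140 CPM and endothelium markers to 308, 301 and 114 CPM. Epithelium markers summed to 472.5, 538 and 838 CPM and genes of dividing cells to 3734, 3782 and 5164 CPM. Red blood cell genes, at 4634, 3438 and 4589 CPM, did not set replicate 3 apart. The part of these cell populations in the levels of the ciliary genes was not tested, and in bulk RNA fewer cells of a type and less RNA per cell cannot be told apart.

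One library, the E10.5 replicate 3 that differed in several of these markers, stood apart in the ciliary genes too. Log2 levels of the 42 genes differed between E10.5 replicates 1 and 2 with an SD of 0.149, but it was 0.411 and 0.448 when replicate 3 was set against them. The deviation of E10.5 replicate 3 from its stage mean ran opposite to their GC content (Spearman's rho = −0.80 over the 42 genes, a description in which all points share the library), and rho was 0.79 and 0.63 in replicates 1 and 2. The trend was not limited to the ciliary genes. Over 16363 genes rho was −0.55 in replicate 3 and 0.44 and 0.47 in replicates 1 and 2. Deviations from a stage mean cancel over its libraries, so the values of replicates 1 and 2 are not independent of replicate 3. Among AT-rich members, Ift74 (41.6% GC) was 0.67 above its E10.5 mean on the log2 scale in replicate 3 and Bbs5 (39.9% GC) was 0.62 above it. The same SD was 0.129–0.209 at E11.5 and 0.268–0.374 at E12.5. At both later stages the deviations also ran with gene length. Over the 42 genes, rho was 0.55, −0.43 and −0.29 in E11.5 replicates 1 to 3. At E12.5 it was −0.19, 0.67 and −0.56 in the same order. Because these libraries bear on every comparison, the counts below are also given with single libraries left out.

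The 42 genes were all expressed and all passed the filter on low counts in each comparison. Their lowest count in any library was 99, in Bbs5, and the highest 1969, in Ift74. Averaged over the 9 libraries, levels ran from 1.55 CPM per kb for Tctn1 to 26.8 CPM per kb for Ift74. The 42 genes summed to 1267 ± 64.0 CPM at E10.5, 1275 ± 19.1 CPM at E11.5 and 1226 ± 47.0 CPM at E12.5, and the libraries of the stages overlapped, with ranges of 1222–1340, 1257–1295 and 1178–1272 CPM.

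**Figure D1:**
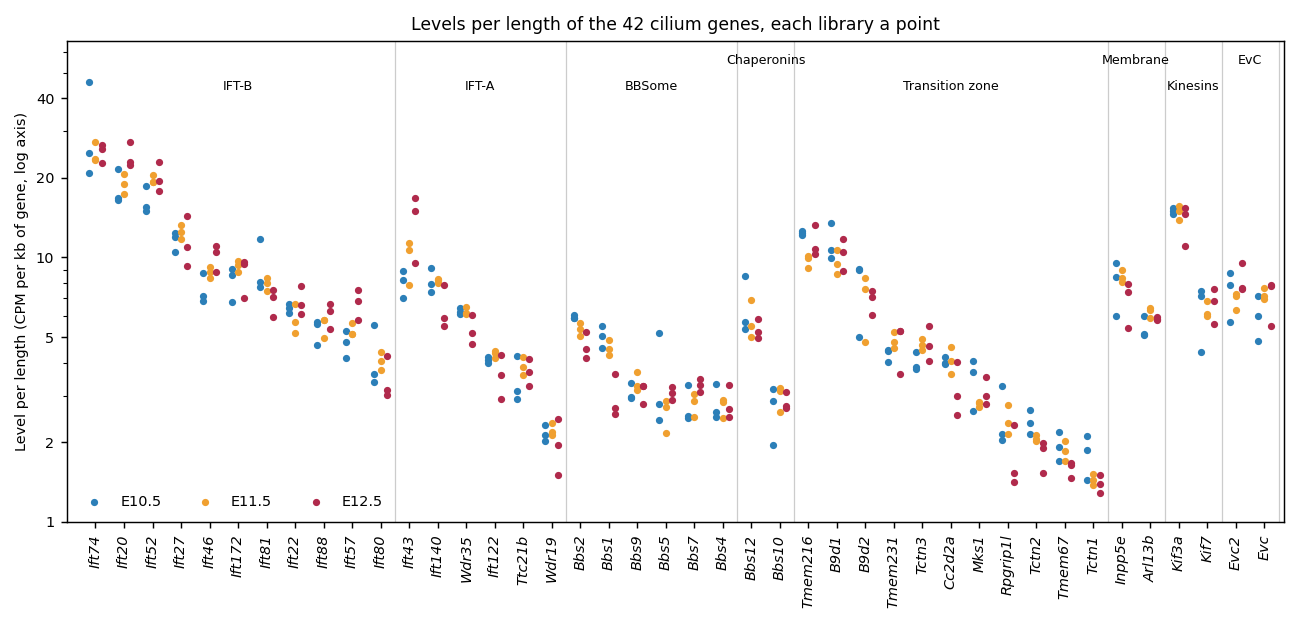
Level of each of the 42 ciliary genes in each of the 9 libraries (points, colored by stage), in CPM per kb of gene on a log axis, with genes grouped by role and ordered by level. Ift74 is the highest and Tctn1 the lowest, and E10.5 replicate 3 gives the single high point of Ift74 and of Bbs5. The libraries of the stages do not overlap for 6, 12 and 10 of the 42 genes (14.3%, 28.6% and 23.8%) in the early step, the late step and the whole interval. Of all genes tested, 36.7%, 35.3% and 42.4% do not overlap.

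Few of the 42 genes differed between stages, and the named exceptions were Bbs1 and Ift43. The question was which of them changed as the prominences fused, and each pair of stages was tested by the quasi-likelihood test of edgeR, with p-values adjusted by the Benjamini-Hochberg method over all genes tested and a threshold of 0.05. In the early step, 0 of the 42 passed, against 11.8% of the 15708 genes tested (6.19% higher and 5.58% lower). DESeq2 also called 0 of them, and 1 of the 42 had an unadjusted p-value under 0.05 in edgeR, against 27.9% of all genes. The late step had 1 call among the 42 (2.38%), Bbs1, which was lower, against 12.2% of 15808 genes (7.61% higher and 4.57% lower). Over the whole interval Ift43 was higher and Bbs1 lower at E12.5, 2 of 42 (4.76%) against 24.6% of 15899 genes (14.0% higher and 10.5% lower). Unadjusted p-values were under 0.05 for 5 of the 42 in the late step and 4 in the whole interval, against 29.6% and 37.2% of all genes. Tested over the 3 stages together, Bbs1 (adjusted p = 0.010) and Ift43 (adjusted p = 0.047) again passed, 2 of 42 against 28.3% of 16375 genes. With single libraries left out, that call of Ift43 was kept only without E10.5 replicate 3 or E12.5 replicate 2, and that of Bbs1 was lost only without E12.5 replicate 1. The Ift43 call was also lost under the corrections for GC content (with or without the replicate block) and gene length. Neither reached the study's threshold for a DEG, which also asks for a log2 fold change of 1 or more in size. Of all genes tested, 6.07%, 5.10% and 15.0% were DEGs in the early step, the late step and the whole interval, respectively.

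The fold changes were small and their intervals narrow. The median absolute log2 fold change of the 42 genes was 0.15, 0.19 and 0.21 in the early step, the late step and the whole interval, beside 0.26, 0.27 and 0.41 over all genes tested. The 95% interval lay wholly inside −1 to 1, that is, within a 2-fold change, for 41, 42 and 39 of the 42 genes, beside 66.8%, 72.4% and 50.5% of all genes. It lay within a 1.5-fold change for 30, 32 and 10 of them, beside 36.3%, 39.1% and 14.3%. The ciliary genes were measured with somewhat more precision than most, with the interval reaching to a median of 0.34, 0.32 and 0.45 on either side, beside 0.43, 0.38 and 0.52 over all genes. The medians of the signed log2 fold changes were 0.01, −0.07 and −0.11, beside −0.03, 0.02 and −0.01 over all genes. For 6, 12 and 10 of the 42 genes the 3 libraries of one stage all lay above those of the other, beside 36.7%, 35.3% and 42.4% of all genes. With 3 libraries against 3, an exact permutation test cannot give a p-value below 0.1.

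**Figure D2:**
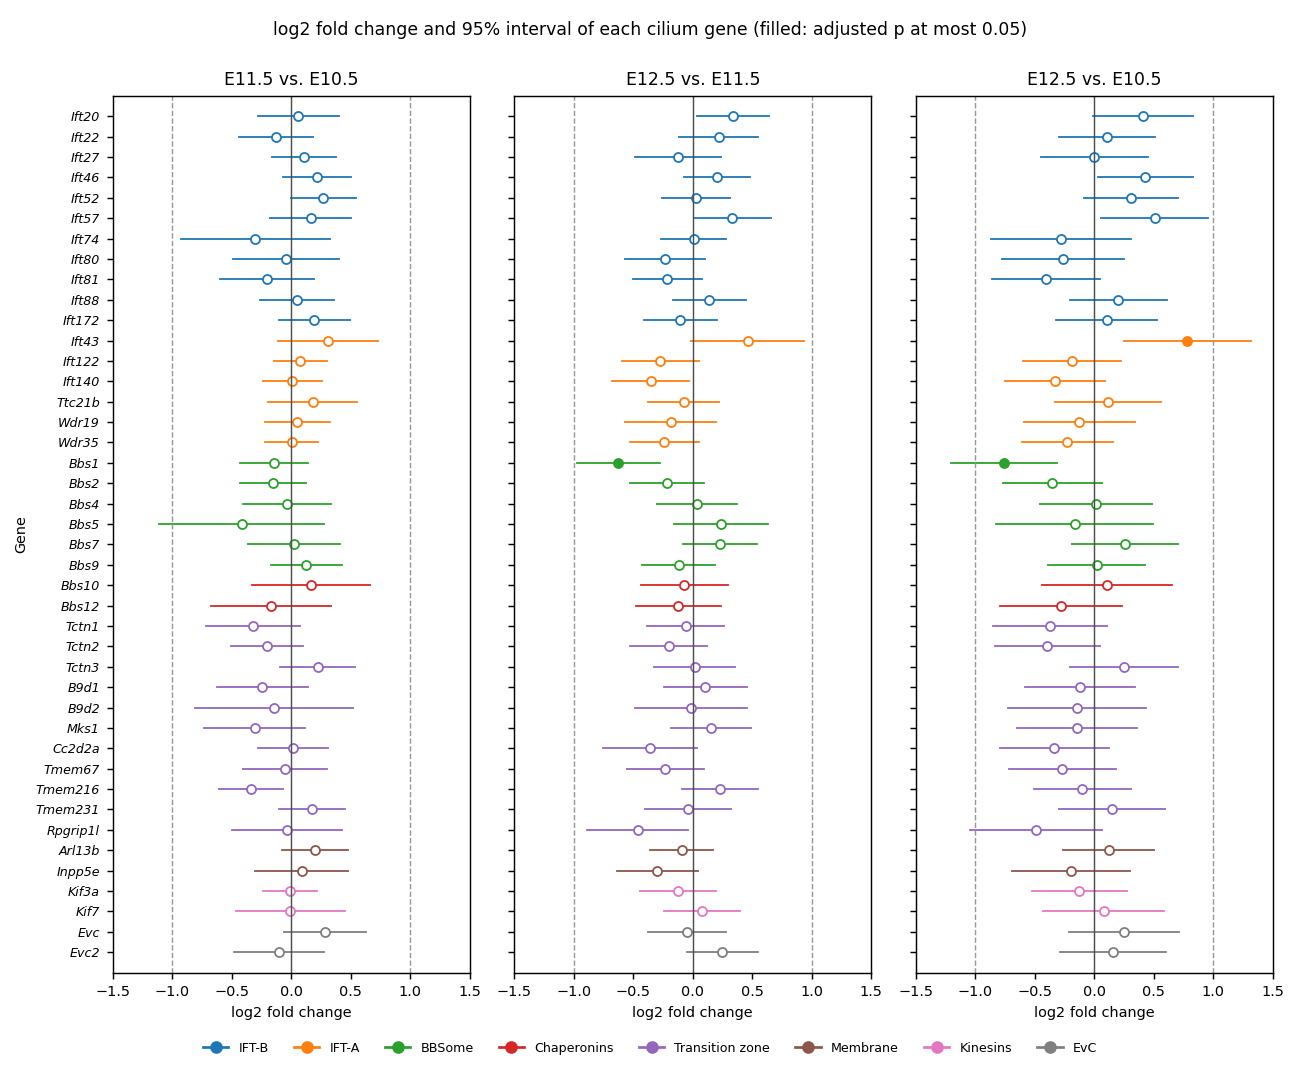
Log2 fold change (points) and 95% interval (lines) of each of the 42 ciliary genes in the 3 comparisons, from edgeR, colored by role and filled where the gene passed the test. Only Bbs1 and Ift43 are filled, and the dashed lines at −1 and 1 mark the DEG threshold, which no point reaches.

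These counts depended on single libraries. Without E10.5 replicate 3, 8 of the 42 genes passed in the early step, where 39.6% of all genes then did. Ift46, Ift52, Ttc21b and Arl13b were higher at E11.5 by 0.28–0.38 on the log2 scale, and Evc2, Tmem216, Tctn1 and Mks1 fell by 0.26–0.47. In the whole interval without that library, Ift20 (log2 fold change 0.55), Ift46 (0.55) and Ift57 (0.59) passed beside Ift43 (0.86) and Bbs1 (−0.82), where 30.1% of all genes did. With any of E10.5 replicates 1 and 2 and E12.5 replicates 1 and 3 left out, edgeR called none of the 42 in that comparison. Of all genes it then called 19.2%, 16.7%, 13.4% and 15.7%, in that order, beside 24.6% with all libraries. Without E12.5 replicate 2, 9 of the 42 passed in the late step, where 30.8% of all genes did. These were Ift43 and Ift57, which were higher, and Bbs1, Rpgrip1l, Cc2d2a, Ift140, Ift122, Ift80 and Wdr35, which were lower by 0.35–0.80 on the log2 scale. In neither case did a member reach a log2 fold change of 1 in size.

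The 11 IFT-B genes, which build the outward trains, ran from 3.91 CPM per kb for Ift80 to 26.8 for Ift74, one of the tubulin-binding subunits and the highest of the 42. None of the 11 passed in any comparison. Together they summed to 458 ± 77.7 CPM at E10.5, 463 ± 15.1 CPM at E11.5 and 471 ± 16.1 CPM at E12.5. Ift57, a peripheral subunit, had the largest change of the group in the whole interval. Its levels were 13.7, 11.96 and 15.1 CPM in E10.5 replicates 1 to 3, 14.7, 14.7 and 16.1 CPM at E11.5, and 19.6, 16.61 and 21.5 CPM at E12.5. All E12.5 libraries lay above all others, while those of E10.5 and E11.5 overlapped. The log2 fold change was 0.51 ± 0.20 (SE) in the whole interval (adjusted p = 0.095) and 0.33 ± 0.15 in the late step (adjusted p = 0.16). Ift20, which also works at the Golgi, and Ift46 likewise had all E12.5 libraries above those of E10.5, with log2 fold changes of 0.41 and 0.43 (adjusted p = 0.14 and 0.11). Ift81, the partner of Ift74 in binding tubulin, had all of them below, with −0.41 (adjusted p = 0.18). These 3 are named after their values were seen. The small GTPase genes Ift22 and Ift27 had log2 fold changes of 0.10 and 0.00 in the same comparison, and Ift88, a core subunit whose loss removes cilia, had 0.20.

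Among the 6 IFT-A genes, which are needed for return trains and for the entry of membrane receptors, Ift43 rose and the other 5 did not pass. Ift43 (ENSMUSG00000007867, chr12:86082541-86162459, plus strand, GRCm38) encodes a small peripheral subunit. It was at 13.6, 11.6 and 14.7 CPM in the E10.5 libraries, 13.02, 17.6 and 18.7 CPM at E11.5, and 24.8, 15.7 and 27.8 CPM at E12.5. Every E12.5 library lay above every E10.5 library, but E12.5 replicate 2 fell among those of E11.5. From 13.3 ± 1.56 CPM at E10.5 to 22.8 ± 6.30 CPM at E12.5, the fold change was 1.72, a log2 fold change of 0.78 ± 0.24 (95% interval 0.25 to 1.32, adjusted p = 0.037). Neither step passed alone, with 0.31 (adjusted p = 0.31) in the early step and 0.46 (adjusted p = 0.18) in the late step. The call was lost when E10.5 replicate 1, E10.5 replicate 2, E12.5 replicate 1 or E12.5 replicate 3 was left out, with adjusted p-values of 0.080, 0.12, 0.14 and 0.14, and the log2 fold change was 0.61–0.99 over the 6 libraries left out in turn. It was also lost after a correction for GC content (0.62, adjusted p = 0.079) or gene length (0.55, adjusted p = 0.066), but passed with the GC correction and the replicate block together (0.60, adjusted p = 0.018). Ift43 has 1651 bases, in a set that runs from 1454 to 14688. In the late step, by contrast, the 5 other IFT-A genes all had negative log2 fold changes, from −0.35 for Ift140 to −0.07 for Ttc21b, and none passed. Ift140, Ift122 and Wdr19 encode core subunits and Wdr35 and Ttc21b peripheral ones, and their levels per length ran from 2.12 CPM per kb for Wdr19 to 7.59 for Ift140.

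Of the 6 BBSome subunit genes, Bbs1 fell and the other 5 did not pass. Bbs1 (ENSMUSG00000006464, chr19:4886898-4906627, minus strand, GRCm38) encodes the subunit that binds the small GTPase ARL6 and so brings the coat to the membrane. It was at 30.8, 28.2 and 25.4 CPM in the E10.5 libraries, 27.2, 23.9 and 25.2 CPM at E11.5, and 14.3, 20.2 and 15.1 CPM at E12.5. All E12.5 libraries lay below all 6 others, and those of E10.5 and E11.5 overlapped. The mean went from 28.1 ± 2.72 CPM at E10.5 over 25.4 ± 1.65 CPM at E11.5 to 16.5 ± 3.18 CPM at E12.5. The log2 fold change was −0.76 ± 0.20 (95% interval −1.21 to −0.31, adjusted p = 0.020) in the whole interval and −0.62 ± 0.16 (95% interval −0.98 to −0.27, adjusted p = 0.029) in the late step. In the early step it was −0.14 ± 0.13 (adjusted p = 0.50). In the whole interval the call was lost without the same libraries as that of Ift43, with adjusted p-values of 0.071, 0.057, 0.10 and 0.071. In the late step it was kept only without E12.5 replicate 2, and the other 5 adjusted p-values were 0.053–0.12. The fall remained negative throughout, at −0.93 to −0.67 and −0.80 to −0.53 in these comparisons. It passed after the correction for GC content (−0.87 and −0.69) and for gene length (−0.81 and −0.61). The Bbs1 coordinates of the deposited table differ from those of GENCODE vM21, the only such case among the 42.

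The remaining BBSome genes stayed within smaller ranges. In the whole interval, log2 fold changes were −0.35 for Bbs2 (adjusted p = 0.20), −0.17 for Bbs5, 0.01 for Bbs4, 0.02 for Bbs9 and 0.26 for Bbs7. The 6 subunit genes summed to 102–116 CPM at E10.5, 101–105 CPM at E11.5 and 93.2–93.8 CPM at E12.5, so that all E12.5 libraries lay below all others, as they did for Bbs1, which is in the sum. Levels per length ran from 2.79 CPM per kb for Bbs4 to 5.32 for Bbs2. The chaperonin-like genes Bbs10 and Bbs12, whose products fold BBSome subunits together with MKKS, did not pass. Bbs12 was at 13.9, 13.1 and 20.81 CPM at E10.5, 16.8, 13.4 and 12.2 CPM at E11.5, and 14.3, 12.1 and 12.8 CPM at E12.5. The libraries of the stages overlapped and E10.5 replicate 3 was the highest. Its log2 fold change in the whole interval was −0.28 ± 0.23 (adjusted p = 0.42) with that library and −0.04 without it.

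**Figure D3:**
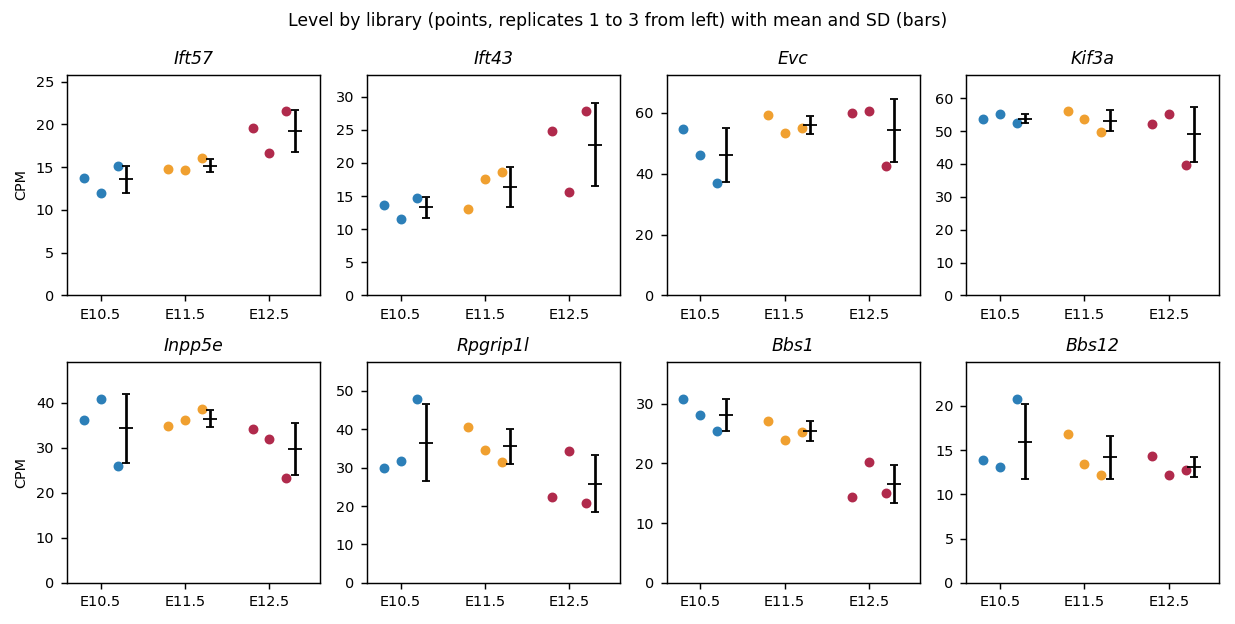
Levels in CPM of 8 ciliary genes, one per role group or the gene that passed a test in it, with a point for each library (replicates 1 to 3 from left to right in each stage) and bars for mean and SD. Bbs1 is lower in all 3 libraries of E12.5 than in the other 6, Ift43 is higher in 2 of the 3 E12.5 libraries, and the stages overlap for Kif3a, Evc, Bbs12 and Rpgrip1l.

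The 11 transition zone genes encode the gate: tectonics (Tctn1, Tctn2, Tctn3), B9 domain proteins (B9d1, B9d2, Mks1), membrane proteins (Tmem67, Tmem216, Tmem231), the scaffold Cc2d2a and Rpgrip1l, which anchors the module at the base. None of them passed in any comparison. Their levels per length ran from 1.55 CPM per kb for Tctn1 to 11.2 for Tmem216, with B9d1 at 10.5. The deposited length of Tmem216 is 1977 bases, while its exons cover 3281 bases in GENCODE vM21, so its place above B9d1 depends on the length used. Summed, the 11 genes were at 218 ± 2.91 CPM at E10.5, 204 ± 6.54 CPM at E11.5 and 189 ± 16.8 CPM at E12.5, and all E10.5 libraries (215–221 CPM) lay above those of E11.5 (197–210 CPM) and E12.5 (176–208 CPM). Over the whole interval, 9 of the 11 had negative log2 fold changes, with a median of −0.15, beside −0.01 over all genes. Rpgrip1l had the largest change of the group in that comparison. It was at 29.95, 31.6 and 48.0 CPM at E10.5, 40.6, 34.7 and 31.6 CPM at E11.5, and 22.4, 34.3 and 20.9 CPM at E12.5. E10.5 replicate 3 was the highest library and E12.5 replicate 2 lay among the other stages, so that no stages were separate. Its log2 fold change was −0.49 ± 0.25 in the whole interval (adjusted p = 0.19) and −0.46 ± 0.19 in the late step (adjusted p = 0.14). At 14688 bases it is the longest gene of the set. Tmem216 was the gene with the smallest unadjusted p-value in the early step, with a log2 fold change of −0.34 (adjusted p = 0.10). It was at 24.5, 24.8 and 24.0 CPM at E10.5 and 18.02, 20.1 and 19.7 CPM at E11.5, with no overlap, and at 20.4, 21.4 and 26.2 CPM at E12.5, where it overlapped with E10.5. Tctn3 had positive log2 fold changes of 0.22 and 0.25 in the early step and the whole interval, while Tctn1 had −0.32 and −0.37 and Tctn2 −0.20 and −0.39, none of which passed. Tctn1 shares 25.5% of its exon bases with genes on the opposite strand, and whether reads were counted by strand is not given in the sources used here.

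The genes of the ciliary membrane, the motors and the Ellis-van Creveld complex did not pass in any comparison. Arl13b encodes a GTPase of the ciliary membrane that retains the lipid phosphatase encoded by Inpp5e. Arl13b was at 27.6 ± 2.63 CPM at E10.5, 31.6 ± 1.49 CPM a day later and 29.8 ± 0.40 CPM at E12.5. Inpp5e was at 36.3, 40.9 and 25.9 CPM in the E10.5 libraries, 34.8, 36.1 and 38.6 CPM at E11.5, and 34.2, 32.0 and 23.3 CPM at E12.5. Its E12.5 libraries lay below those of E11.5 but overlapped with those of E10.5, with log2 fold changes of −0.30 (adjusted p = 0.23) and −0.20 (adjusted p = 0.57). Inpp5e shares 20.3% of its exon bases with Pmpca on the opposite strand.

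Kif3a encodes a motor subunit of kinesin-2, the motor of the outward trains. It was at 53.6, 55.3 and 52.5 CPM at E10.5, 56.0, 53.8 and 49.9 CPM at E11.5, and 52.2, 55.2 and 39.5 CPM at E12.5. Apart from E12.5 replicate 3, which was lower, the libraries lay within 49.9–56.0 CPM. The log2 fold change was −0.01 ± 0.10 (95% interval −0.24 to 0.21) in the early step and −0.13 ± 0.18 (95% interval −0.52 to 0.27) in the whole interval. Kif7, which works at the ciliary tip on GLI proteins, was at 29.1 ± 7.76, 28.9 ± 2.10 and 30.6 ± 4.58 CPM in stage order, and it shares 20.3% of its exon bases with other genes. Evc, whose product relays Hedgehog signals near the ciliary base with that of Evc2, was at 54.9, 46.2 and 37.1 CPM at E10.5, 59.2, 53.4 and 55.2 CPM at E11.5, and 60.1, 60.5 and 42.4 CPM at E12.5. The stages overlapped, and its log2 fold change was 0.28 ± 0.15 in the early step (adjusted p = 0.26) and 0.25 ± 0.21 in the whole interval (adjusted p = 0.43). Evc2 was at 43.4 ± 9.004, 40.4 ± 3.05 and 48.2 ± 6.35 CPM in stage order.

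The differences between libraries followed gene properties that the choice of genes had not used. In the late step the log2 fold change of the 42 genes was more negative the longer the gene (Spearman's rho = −0.59 over the 42 genes), and over all 15808 genes tested rho was −0.30. In the whole interval it was −0.33 over the 42 genes and −0.11 over all genes, and in the early step it was 0.11 over both. The 42 genes share the libraries of each comparison. Libraries of E11.5 and E12.5, whose deviations ran with gene length in both directions within a stage, enter the comparisons with those stages. Fits corrected for GC content or length were made for all 42 genes. Beside Bbs1, they called Evc (0.31) and Tmem216 (−0.39) in the early step and Ift81 (−0.45) in the whole interval after the GC correction, and Bbs2 (−0.52) in the whole interval after the length correction. Of all genes, 22.4%, 33.6% and 28.7% passed in these 3 fits.

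**Figure D4:**
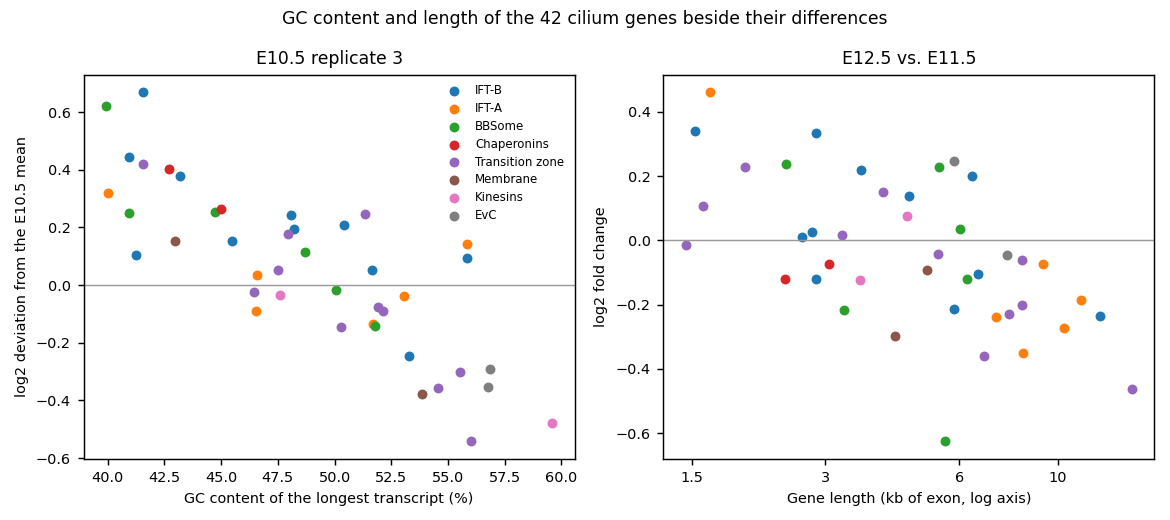
Left: log2 deviation of E10.5 replicate 3 from the E10.5 mean against the GC content (percent) of the longest transcript, for the 42 ciliary genes. Right: log2 fold change in the late step against gene length (kb of exon, log axis) for the same genes, colored by role; both run downward, with Spearman's rho of −0.80 and −0.59.

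Another 60 genes of the primary cilium, in 5 lists written from knowledge of their proteins, were set beside the 42. Between E10.5 and E12.5, 6 of them rose and 8 fell, 14 of 60 (23.3%) beside 24.6% of all genes. In the early step, 2 rose and 1 fell, and in the late step 1 rose and 2 fell, 5% in both, beside 11.8% and 12.2%. Without E10.5 replicate 3, 14 rose and 4 fell in the early step, where 39.6% of all genes passed, and 9 rose and 8 fell in the whole interval, where 30.1% did. Without E12.5 replicate 2, 5 rose and 15 fell in the late step, where 30.8% of all genes passed. Without E12.5 replicate 1, 2 rose and 1 fell in the whole interval, where 13.4% did. Without E11.5 replicate 1, 2 or 3, none of the 60 passed in the early step, where 2.95%, 5.19% and 3.25% of all genes did. None passed in the late step either, beside 6.37%, 4.41% and 5.49% of all genes. The same held without E10.5 replicate 2 in the early step (5.98% of all genes) and without E12.5 replicate 1 in the late step (4.71%). These counts without single libraries were added after the data had been seen.

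Of the 15 other IFT and motor genes, 4 rose and 1 fell in the whole interval (33.3%), beside 24.6% of all genes. The IFT-B subunit genes Cluap1 (11.2 ± 2.87 to 20.9 ± 5.42 CPM, log2 fold change 0.91, adjusted p = 0.029) and Ttc30b (4.04 ± 1.05 to 8.10 ± 1.97 CPM, 1.01, adjusted p = 0.029) were among those that rose. Cluap1 shares 40.8% of its exon bases with other genes, among them Gm20695 on the same strand. Which gene the reads of Cluap1 came from was not tested. Kifap3, the accessory subunit of kinesin-2, rose in the early step (log2 fold change 0.50, adjusted p = 0.046). The others were Kif17 and Wdr34, which rose, and the dynein-2 heavy chain gene Dync2h1, which fell (−0.75). None of the 5 other BBSome genes passed in any comparison.

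Of 16 other transition zone and inversin genes, 2 rose and 2 fell in the whole interval (25.0%), a share near the 24.6% of all genes. Tmem218 went from 6.79 ± 0.98 to 15.9 ± 2.70 CPM (log2 fold change 1.24, adjusted p = 0.0031) and Anks6 from 11.8 ± 2.83 to 19.8 ± 4.01 CPM (0.76, adjusted p = 0.045). Ahi1 fell from 45.1 ± 5.81 to 27.4 ± 6.10 CPM (−0.71, adjusted p = 0.0285), and Cep290, which links the microtubules of the gate to the membrane, fell by 0.81 on the log2 scale. Of 14 basal body and distal appendage genes, 0 rose and 4 fell in the whole interval (28.6%), beside 24.6% of all genes, of which 10.5% were lower. All 14 had negative log2 fold changes in the late step, where 52.0% of all genes had positive ones, and 2 of the 14 passed (14.3%, beside 12.2%). Their lengths ran from 4453 bases for Ofd1 to 11994 for C2cd3. Longer genes had more negative log2 fold changes in that step over all genes tested (rho = −0.30). After the length correction, 1 of the 60 genes rose and 7 fell in the late step, where 17.9% of all genes passed. Cep97 and Ccp110, whose products together cap the centriole and hold back cilium growth, fell in the whole interval by 0.88 (adjusted p = 0.0097) and 0.65 (adjusted p = 0.027). Ninl, of the centriole, fell in every comparison, from 48.0 ± 1.90 over 33.4 ± 1.59 to 24.7 ± 1.97 CPM. The summed level of the 14 genes was 1062–1234 CPM at E10.5, 1020–1081 CPM at E11.5 and 700–967 CPM at E12.5. Centriole genes are also used in the division cycle. Of the 10 genes of dividing cells 7 fell in the whole interval and 4 in the late step, where 10.5% and 4.57% of all genes fell. The part of dividing cells or of gene length in the changes of the 14 genes was not tested. Among 10 genes of ciliary membrane traffic, Unc119b, a carrier of lipidated cargo, fell in the whole interval (−0.76, adjusted p = 0.0072) and Rab3ip, which activates RAB8 at the base, rose in the late step (0.53, adjusted p = 0.019).

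**Figure D5:**
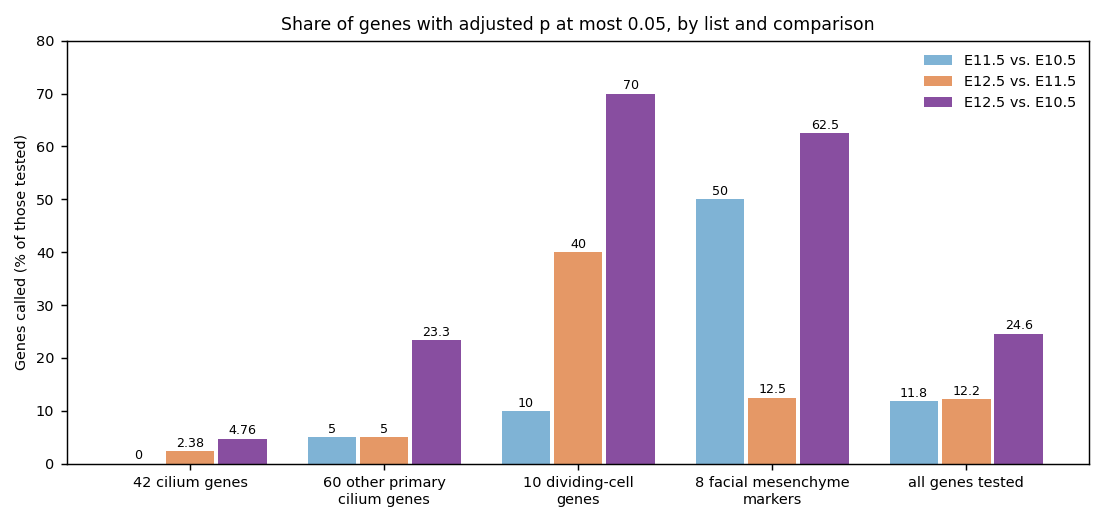
Share of genes that passed the test at an adjusted p-value of 0.05 (bars from 0, in percent of the genes tested) in the 3 comparisons, for the 42 ciliary genes, 60 other primary cilium genes, 10 genes of dividing cells, 8 facial mesenchyme markers and all genes tested. The 42 ciliary genes have shares of 0, 2.38 and 4.76%, all genes 11.8, 12.2 and 24.6%; the lists share libraries and were not tested against each other.

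Of 10 genes of the Hedgehog pathway that act at the cilium, none passed edgeR's test in the early step, where 11.8% of all genes did. In that step 1, Gli2, had an unadjusted p-value under 0.05, as 27.9% of all genes had. In the late step and the whole interval, 12.2% and 24.6% of all genes passed. Gli3, the main repressor among the GLI factors, and Sufu, which holds GLI proteins back, fell in the late step by 0.60 (adjusted p = 0.023) and 0.53 (adjusted p = 0.032) on the log2 scale. Hhip, a Hedgehog-binding antagonist and target gene, rose in the late step (log2 fold change 0.82, adjusted p = 0.037) and in the whole interval (1.10, adjusted p = 0.019).

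Among 9 RFX and FOXJ1 factor genes, 7 or 8 could be tested. Rfx4 was at 2.97 ± 1.06 CPM at E10.5, 0.05 ± 0.05 CPM at E11.5 and 0.10 ± 0.09 CPM at E12.5, lower than at E10.5 in both later stages (adjusted p = 0.0020 and 3.6e-04), at the stages in which the forebrain markers were lower too, and their part in it was not tested. Foxj1, the factor of motile cilia, was at 2.50 ± 0.33, 0.96 ± 0.08 and 2.65 ± 0.64 CPM, and it fell in the early step (adjusted p = 0.017) and rose in the late step (adjusted p = 0.011). Gmnc, which acts before it in multiciliated cells, was at 0.04 ± 0.07, 0.19 ± 0.13 and 0.79 ± 0.04 CPM, with at most 14 counts in a library, and was higher at E12.5 than at E10.5 (adjusted p = 0.0045). Rfx3 and Rfx7 fell in the whole interval, in which 4 of the 8 tested passed (24.6% of all genes did). Of 16 motile cilium genes in the table, 8, 10 and 8 passed the filter in the early step, the whole interval and the late step, and 2 of the 10, Ccdc40 (21.4 ± 0.61 to 12.8 ± 3.17 CPM, adjusted p = 0.037) and Hydin (0.68 ± 0.08 to 0.13 ± 0.07 CPM, adjusted p = 0.016), fell, where 24.6% of all genes passed. The axonemal dynein gene Dnah9 had at most 9 counts in a library, the radial spoke gene Rsph4a at most 10 and Tekt4 at most 3. In the comparisons given, Rfx4, Gmnc and Hydin passed the filter on low counts only through the stage in which they were higher. The direction of their calls was therefore set by the filter.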

How the data were processed

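Bulk RNA of pooled lambdoidal junction tissue was sequenced in 9 libraries, 3 per stage. Reads were mapped by the authors with HISAT2 2.0.5 (per the submitters' processing notes) to the mouse build GRCm38/mm10, and they deposited whole-number read counts per gene without normalization, which is the only measurement used here. The deposited FPKM, mean normalized count (a signal scaled by size factors), log2 fold change and p-value columns, the last 2 from the authors' own comparisons, were not used. Strand setting and treatment of multi-mapped reads are not given in the sources used here. The depth was between 16581009 and 20836804 counts per library, and a member's lowest count was 99.

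The members and lists were chosen with earlier results of these data known. Listed genes were found by symbol in the deposited table, in which 103 symbols are duplicated. Each of the 42 members occurred once. Counts and fits were then joined by Ensembl identifier. A comparison of 2 stages used the 6 libraries of those stages, and that of the 3 stages all 9, with filterByExpr, TMM and the quasi-likelihood test of edgeR 4.0.16 (R 4.3.3, limma 3.58.1), two-sided, with Benjamini-Hochberg adjustment over all genes tested and a threshold of 0.05. Standard errors are the log2 fold change over the square root of F. The scripts were tested on simulated data. Python 3.11.15 was used for tables and plots, with pandas 2.3.3, numpy 2.4.6, scipy 1.17.1 and matplotlib 3.10.9. Alternatives were DESeq2 1.42.0, its size factors in edgeR, upper quartile normalization, other filters on low counts (at least 1 count, or 10 in every library), one model over all 9 libraries, a block for the replicate number, corrections for GC content or gene length (lowess, span 0.3), only protein-coding genes, no hemoglobin genes, a threshold of 0.01 on the adjusted p-value and each library omitted in turn. All libraries were grouped by the stage in their labels. Values in every library are given for the members that passed in at least 1 comparison and, in a role group with none, for the member with the largest absolute log2 fold change in E12.5 vs. E10.5. From each other list, up to 3 genes with the smallest p-values among those that passed, and genes whose absence checks a label, are given with values. Other genes were named after their values were seen. One gene of the Hedgehog list is not reported here. Coordinates were taken from the table as deposited, and 41 of 42 were the same in GENCODE vM21, from which GC content and exon overlap were taken. Of the 42 members, 9 share exon bases with another gene, 3 of them over 10%.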

Additional observations from a re-analysis of the deposited data

How the results depend on the processing

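The 2 calls, Bbs1 and Ift43, were tried under 13 other settings and 6 single libraries left out for each comparison. Both kept their direction in all. At an adjusted p-value of at most 0.01, 0 of the 42 genes passed in any comparison. Of all genes, 3.67%, 4.43% and 12.2% did in the early step, the late step and the whole interval. The shares of all genes given here count both directions. In the early step the GC correction called 1 gene higher (Evc) and 1 lower (Tmem216), where 22.4% of all genes passed. With the replicate block as well it called 1 higher, where 19.4% did. In the whole interval the fit on all 9 libraries called 3 higher (with Ift46 and Ift57), where 33.2% of all genes passed. The GC correction called 0 higher and 2 lower there (33.6% of all genes passed), and with the replicate block added 1 higher (Ift43) and 6 lower (38.7%). The gene length correction called 0 higher and 2 lower (28.7%). In the late step, 2 were called lower among all genes with at least 1 count, of which 11.5% passed. Over the 3 stages together the GC correction called 7 of the 42 genes and, with the replicate block, 5, where 37.8% and 39.0% of all genes passed.

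With single libraries left out, between 0 and 4 genes were called higher and 0 and 4 lower in the early step, 0 and 4 higher and 0 and 1 lower in the whole interval, 0 and 2 higher and 0 and 7 lower in the late step, and 0 and 7 over the 3 stages together. The highest counts came without E10.5 replicate 3 or E12.5 replicate 2, where 37.2% and 31.6% of all genes passed over the 3 stages together. The causes were not tested. Same-numbered libraries of different stages correlated in their deviations from the stage means by −0.15 to 0.22. Between E10.5 and E12.5 the same-numbered values were 0.18, 0.07 and 0.22, and different-numbered ones ran from −0.22 to 0.15. Whether the replicate numbers pair the libraries cannot be told from these values, since the deviations also ran with GC content and gene length. With the replicate block the same genes passed, with log2 fold changes of −0.77 for Bbs1 and 0.75 for Ift43 in the whole interval and −0.64 for Bbs1 in the late step. Tctn2, a processed transcript in the table, is not in the fit of protein-coding genes.

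With 3 pools per stage the 95% interval, which is not adjusted for the number of genes, reached to a median of 0.45 on either side in the whole interval. Smaller changes were mostly not detectable. Somewhat larger ones, of 0.51 in Ift57 and −0.49 in Rpgrip1l, did not pass after adjustment. The labels give no batch that could be set apart from the stage. Levels of protein and numbers of cilia were not measured.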
